A study of Mus musculus with 14 samples.

Results

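The genes described here are 9 transporters that move bile salts and bile lipids across the hepatocyte membrane, namely Slc10a1, Abcb11, Abcc2, Abcb4, Atp8b1, Abcc3, Abcc4, Slc51a and Slc51b. They were picked by gene symbol as a known family of transporters, by a rule that uses no measured value, and all 9 were found among the 25212 genes of the count table. Of these, 7 had enough counts to enter the test over 14252 genes, and Slc51a and Slc51b did not. Liver RNA had been sequenced from 14 male C57BL/6 mice made obese by a high fat diet (HFD), which all groups ate, with 1 library per liver. The DIO group (5 livers) had no operation, the GB-IL group (4 livers) had the gallbladder joined to the ileum and the bile duct tied off, and the RYGB group (5 livers) had a Roux-en-Y gastric bypass. By the sample labels the livers were taken at 8 weeks. Sham-operated mice were not analysed here, so the operation and the new route of bile cannot be told apart in a comparison with DIO.

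Hepatocytes recover bile salts from portal blood and pump them into the canaliculus, the channel between neighbouring hepatocytes where bile forms. Canalicular ABC transporters move bile salts, conjugated organic anions and phospholipid into bile, and a further set of exporters on the sinusoidal (basolateral) membrane can return bile salts to the blood. The receptor FXR, encoded by Nr1h4, senses bile salts and is known to drive transcription of several of these transporters, Abcb11 foremost.

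The promoters of 3 members are shown because a motif search found in them a match to one of the longer elements known from bile salt or stress signalling. They were taken from RefSeq (GRCm38.p6), as windows from 250 bases before to 50 bases after a gene's start, and are written 5′ to 3′ on the strand of the gene. The Abcb11 window is chr2:69342567-69342866 on the minus strand, the Abcc2 window is chr19:43782058-43782357 on the plus strand and the Abcc4 window, the upstream of 2 for that gene, is chr14:118706170-118706469 on the minus strand. Capitals in Abcb11 mark an inverted repeat of AGGTCA spaced by 1 base (IR-1, AGGTCANTGACCT) with 1 mismatch. In Abcc2 they mark TGACNNNGC, the core of the antioxidant element, and further downstream a single AGGTCA. In Abcc4 they mark TGACNNNGC, which lies on the opposite strand there.
Abcb11: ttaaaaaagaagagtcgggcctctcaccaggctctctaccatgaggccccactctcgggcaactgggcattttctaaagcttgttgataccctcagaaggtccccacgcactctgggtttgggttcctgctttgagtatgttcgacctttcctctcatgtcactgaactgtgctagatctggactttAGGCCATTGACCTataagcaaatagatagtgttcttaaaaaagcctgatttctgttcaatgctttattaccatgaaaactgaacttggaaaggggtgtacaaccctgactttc
Abcc2: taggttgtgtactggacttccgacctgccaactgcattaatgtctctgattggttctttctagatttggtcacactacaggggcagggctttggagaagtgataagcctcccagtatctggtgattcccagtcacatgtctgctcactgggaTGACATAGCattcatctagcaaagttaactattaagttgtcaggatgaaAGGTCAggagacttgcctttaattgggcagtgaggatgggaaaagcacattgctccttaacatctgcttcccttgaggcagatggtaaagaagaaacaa
Abcc4: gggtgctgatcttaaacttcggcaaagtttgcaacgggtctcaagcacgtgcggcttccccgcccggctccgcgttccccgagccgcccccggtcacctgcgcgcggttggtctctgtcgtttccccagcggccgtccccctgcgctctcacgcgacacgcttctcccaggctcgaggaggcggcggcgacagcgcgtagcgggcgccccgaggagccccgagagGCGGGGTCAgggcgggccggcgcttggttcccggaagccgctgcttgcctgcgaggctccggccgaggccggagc
The Abcb11 match ran from base -63 to base -51 of the start site, and its mismatch was T4C, with the motif's base first and positions counted from 1 at the motif's 5′ end. It contains the AGGTCA that the search also found there on the opposite strand. Matches with 1 mismatch were looked for after the sequence had been seen. Such a match was present in 1 of the 9 windows of 7 members and in 27 of all 32851 promoter windows (0.0822%), while an exact IR-1 was present in 0 of the 9 and in 3 of all windows (0.00913%). Abcc3 and Atp8b1 had no entry. TGACNNNGC was present in 3 of the 9 windows, the printed ones of Abcc2 and Abcc4 and the other Abcc4 window, and in 12.4% of all. AGGTCA alone was present in 5 of the 9, 1 each of Abcb11, Abcc2, Slc10a1, Slc51a and Slc51b, and in 16.3% of all. The last 3 of these members had no other match and are not printed. Both strands were searched, and a match is a description of these letters, not a measured binding site.

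The depth ran from 18223135 to 28656631 counts per liver. Along the leading principal component (47.8% of variance) GB-IL livers 1 and 2 stood apart, at -142 and -113, from all other livers (-20.8 to 48.4). The common biological coefficient of variation was 0.543 in GB-IL, 0.244 in DIO and 0.295 in RYGB. Summed levels of 11 hepatocyte markers (of 12 listed), Alb included, ranged from 128085 to 146403 CPM in DIO, from 96226 to 127659 in GB-IL and from 128715 to 164365 in RYGB, so the tissue carried the markers of its label in every liver. These sums, and those of the other marker lists below, are CPM of the raw library totals, without TMM scaling. All other CPM here are counts scaled to a common total after edgeR's TMM normalization.

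Per kilobase of exon, the scale on which genes can be compared, Slc10a1 had the highest level of the 9 in DIO livers, at 261 ± 36.8 CPM per kb (SD, n = 5). Abcb11 followed at 90.0 ± 25.3, Abcc3 at 51.2 ± 8.12, Abcb4 at 28.6 ± 2.93 and Abcc2 at 27.6 ± 12.9 CPM per kb. The ranges over livers did not overlap between neighbours in this order, except between Abcb4 and Abcc2. Atp8b1 had 4.02 ± 0.893, Abcc4 0.332 ± 0.0346 and Slc51b 0.224 ± 0.184 CPM per kb, and the ranges of Abcc4 and Slc51b overlapped. The mean of Slc51a was 0.00953 CPM per kb, with an overlap of its range and that of Slc51b. The uptake carrier and the canalicular pumps thus stood well above the alternative basolateral exporters Abcc4, Slc51a and Slc51b, whereas Abcc3 was on the level of the canalicular genes.

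In GB-IL livers the same order of the means held, with Slc10a1 at 166 and Abcb11 at 43.2 CPM per kb. There, the ranges of Abcb11 and Abcc3 overlapped, as did those of Abcc3 and Abcb4, of Abcb4 and Abcc2, and of Abcc4 and Slc51b. In RYGB livers Slc51b (1.00 CPM per kb) came before Abcc4 (0.432 CPM per kb), with overlapping ranges, and Abcc2 (29.8 CPM per kb) came before Abcb4 (29.2 CPM per kb), again with overlapping ranges.

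**Figure D1:**
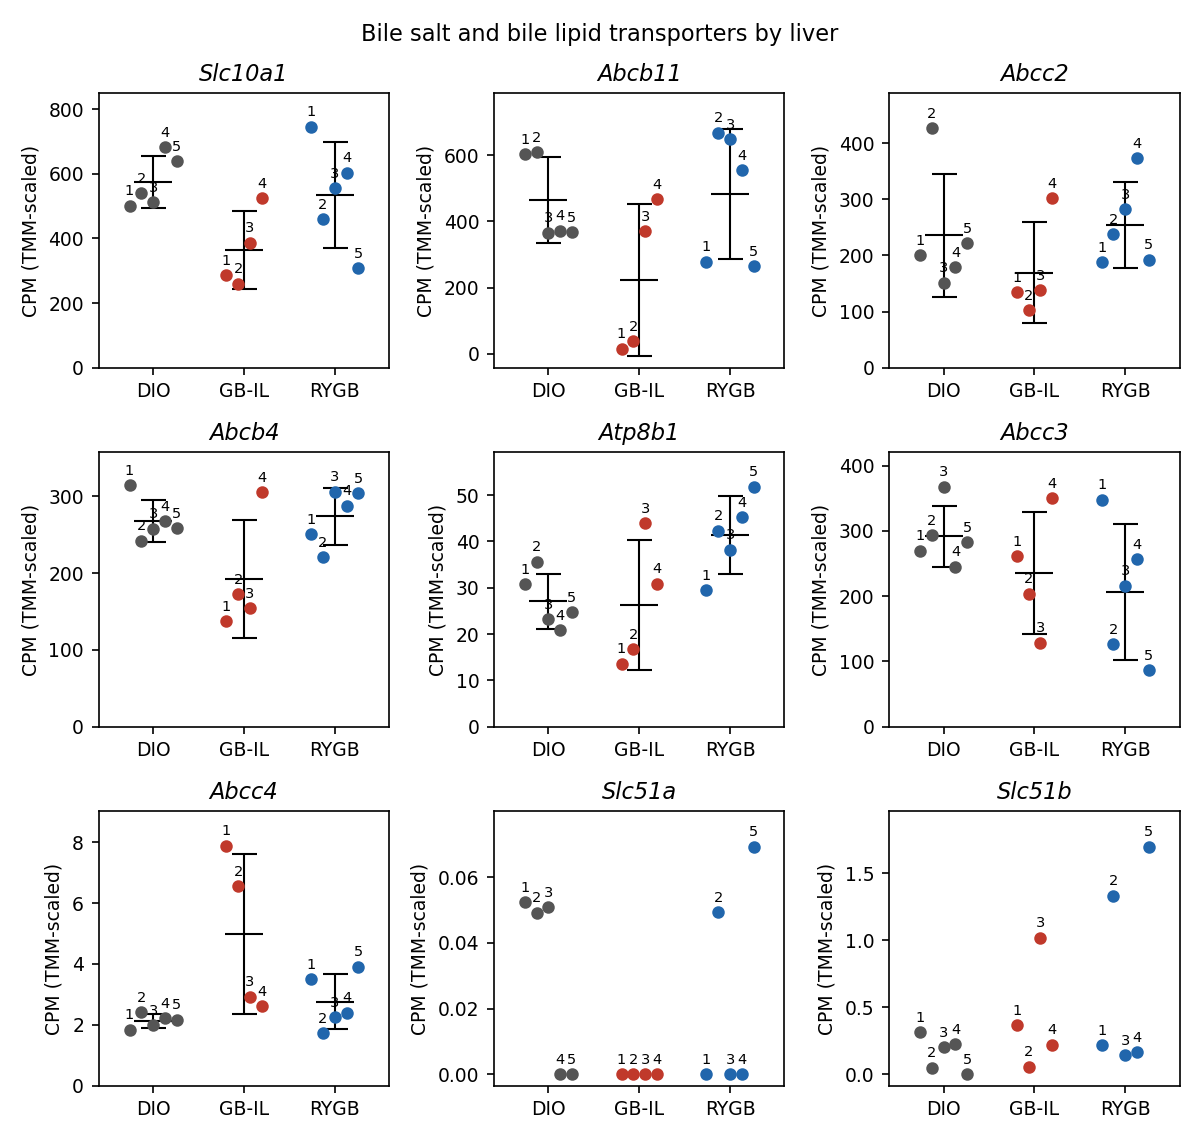
Level of each transporter in each liver, in CPM scaled by TMM (vertical axes from about 0, linear), with the liver's number above its point. Bars give the mean and SD of a group for the 7 tested genes; Slc51a and Slc51b have only a few counts per liver and no bars. For Abcb11, GB-IL livers 1 and 2 lie at 15.5 and 38.1 CPM, under all other livers, and for Abcc4 the 4 GB-IL livers lie above the 5 DIO livers.

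To ask whether bile diversion to the ileum altered the transporters, GB-IL was compared with DIO by edgeR's quasi-likelihood F test, with all 14 livers in the model and Benjamini-Hochberg adjustment over the 14252 genes at a false discovery rate (FDR) of 0.05. None of the 7 tested members passed (0 of 7), while 3.26% of all tested genes (465) did. That background itself rests on single livers, since it was 0 genes without GB-IL liver 1, without GB-IL liver 2 or without any of the DIO livers, and 3572 genes without GB-IL liver 4. Unadjusted p-values were under 0.05 for 2 of the 7, Slc10a1 and Abcc4, which is near the share of all genes (3297, or 23.1%), and DESeq2 called 1 of the 7, Abcc4, among 1292 genes. Of the 7, 1 had a higher mean in GB-IL and 6 a lower mean, with a median log2 fold change of -0.48 beside 0.04 for all genes. Separation of every GB-IL liver from every DIO liver was seen for 1 of the 7, Abcc4, and for 4.17% of all tested genes. In RNA of whole liver, fewer hepatocytes and less RNA per hepatocyte cannot be told apart.

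Slc10a1 encodes NTCP, the sodium-dependent carrier that takes conjugated bile salts up from portal blood (GRCm38 chromosome 12, 80953183 to 80968705). It had 501, 540, 512, 682 and 639 CPM in DIO livers 1 to 5 (575 ± 81.0, SD). In GB-IL livers 1 to 4 it had 286, 260, 386 and 524 CPM (364 ± 120). GB-IL livers 1, 2 and 3 were under every DIO liver and liver 4 was within their range. GB-IL over DIO, this gave a log2 fold change of -0.66 (SE 0.270, 95% interval -1.24 to -0.08, adjusted p = 0.169, edgeR). Without GB-IL liver 4 it was -0.89 with an adjusted p of 0.0288, and without GB-IL livers 1 and 2 it was -0.35 with an adjusted p of 0.896.

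Abcb11 encodes the bile salt export pump, the main exporter of bile salts across the canalicular membrane (chromosome 2, 69238282 to 69342616), whose promoter with the IR-1 match is printed above. It had 602, 609, 366, 372 and 367 CPM in DIO livers 1 to 5 (463 ± 130). The GB-IL livers 1 to 4 had 15.5, 38.1, 369 and 467 CPM (222 ± 230). The GB-IL group was split, with livers 1 and 2 far under all DIO livers and livers 3 and 4 within their range. These values rest on 295 and 675 counts in livers 1 and 2 and on 8709 and 12653 counts in livers 3 and 4, so counting error is small beside the 30.1-fold gap from the lowest liver to the highest. For the group as a whole the log2 fold change was -1.06 (SE 0.715, 95% interval -2.58 to 0.47, adjusted p = 0.363, edgeR), and without livers 1 and 2 it was -0.17 (SE 0.390, adjusted p = 0.983). With a single liver left out it ranged from -0.68 without GB-IL liver 1 to -1.72 without GB-IL liver 4.

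The spread of Abcb11 within GB-IL was wide even for this variable group. The SD of its log2 level over the 4 livers was 2.43, and of the 1296 genes with a mean of at least 100 CPM in DIO, 51 had a wider spread, beside a median of 0.599. In the DIO livers its SD was 0.393 and 229 of the same genes spread more. Slc10a1, Abcb4, Abcc2 and Abcc3 had SDs of 0.457, 0.510, 0.672 and 0.612 in GB-IL, each with at least 560 of these genes wider. Gm13613 and Gm13614, an antisense gene and a pseudogene, overlap Abcb11 on the opposite strand, and since the strand setting of the counting is not given, their reads cannot be told apart from its own.

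Abcc2 encodes MRP2, the canalicular exporter of conjugated bilirubin, glutathione conjugates and sulfated bile salts (chromosome 19, 43782192 to 43840740). It had 200, 426, 151, 179 and 221 CPM in DIO livers 1 to 5 (236 ± 110). After GB-IL it had 134, 103, 137 and 302 CPM in livers 1 to 4 (169 ± 90.1). Again GB-IL livers 1, 2 and 3 were under all DIO livers and liver 4 was not. Between the groups the log2 fold change was -0.48 (SE 0.361, 95% interval -1.25 to 0.29, adjusted p = 0.409, edgeR) and -0.11 without GB-IL livers 1 and 2. It was -0.16 without DIO liver 2 and -0.93 without GB-IL liver 4. DIO liver 2 had the highest Abcc2 level of all 14 livers, and the DIO group had an SD of 0.572 on the log2 scale.

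Abcb4 encodes the phospholipid floppase that supplies phosphatidylcholine to bile (chromosome 5, 8893717 to 8959231). Among the 7 tested members it spread least in DIO (SD 0.142 on the log2 scale), at 315, 242, 258, 267 and 259 CPM in livers 1 to 5 (268 ± 27.5). In GB-IL livers 1 to 4 it had 138, 172, 154 and 305 CPM (192 ± 76.5), so 3 of 4 livers were under every DIO liver. On the log2 scale the fold change was -0.48 (SE 0.227, 95% interval -0.96 to 0.00, adjusted p = 0.220, edgeR). Without GB-IL liver 4 it was -0.80 with an adjusted p of 0.00756, and without GB-IL livers 1 and 2 it was -0.24 with an adjusted p of 0.942.

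Atp8b1 encodes the aminophospholipid flippase FIC1, which keeps the canalicular membrane ordered and resistant to bile salts. It had 30.7, 35.6, 23.3, 20.9 and 24.8 CPM in DIO livers 1 to 5 (27.0 ± 5.999). Among GB-IL livers 1 to 4 it had 13.6, 16.7, 43.9 and 30.9 CPM (26.3 ± 13.99). Livers 1 and 2 were under all DIO livers and liver 3 above them, so the near-equal means hide a split within the group. The fitted log2 fold change was -0.04 (SE 0.299, 95% interval -0.68 to 0.60, adjusted p = 0.945, edgeR), and it turned to 0.45 without GB-IL livers 1 and 2. Tmem30a, the partner that flippases of this family need to leave the endoplasmic reticulum, was low in the same livers, at 45.7 and 78.8 CPM in GB-IL livers 1 and 2, 149 and 155 in livers 3 and 4, and 102 to 161 in DIO.

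Abcc3 encodes MRP3, which exports glucuronides and some bile salts across the basolateral membrane (chromosome 11, 94343295 to 94392997). It had 269, 293, 368, 245 and 282 CPM in DIO livers 1 to 5 (292 ± 46.2). In GB-IL livers 1 to 4 it had 261, 204, 128 and 350 CPM (236 ± 93.6). The 2 groups overlapped, and GB-IL liver 3, not livers 1 and 2, was the lowest. The fitted log2 fold change was -0.31 (SE 0.361, 95% interval -1.08 to 0.46, adjusted p = 0.601, edgeR), from -0.10 without GB-IL liver 3 to -0.57 without GB-IL liver 4.

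Abcc4 encodes MRP4, a basolateral exporter that can return bile salts together with glutathione to the blood (chromosome 14, 118482692 to 118706219). It had 1.83, 2.41, 1.98, 2.21 and 2.16 CPM in DIO livers 1 to 5 (2.12 ± 0.221), from 35 to 49 counts. In GB-IL livers 1 to 4 it had 7.88, 6.55, 2.93 and 2.62 CPM (4.99 ± 2.62), from 69 to 150 counts. All 4 GB-IL livers were above all 5 DIO livers, by a wide margin in livers 1 and 2 and a narrow one in livers 3 and 4. The log2 fold change was 1.23 (SE 0.339, 95% interval 0.51 to 1.95), a 2.34-fold higher mean, and it narrowly missed the FDR (adjusted p = 0.0598, edgeR). DESeq2 gave an adjusted p of 0.0145 and voom a log2 fold change of 0.67 with an adjusted p of 0.240. Leaving out 1 liver at a time gave adjusted p-values from 0.00778 to 0.214 in edgeR, the lowest when GB-IL liver 4 was omitted (0.0376 for liver 3) and the highest when GB-IL liver 1 was. With GB-IL livers 1 and 2 both omitted the log2 fold change was 0.37 with an adjusted p of 0.883.

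**Figure D2:**
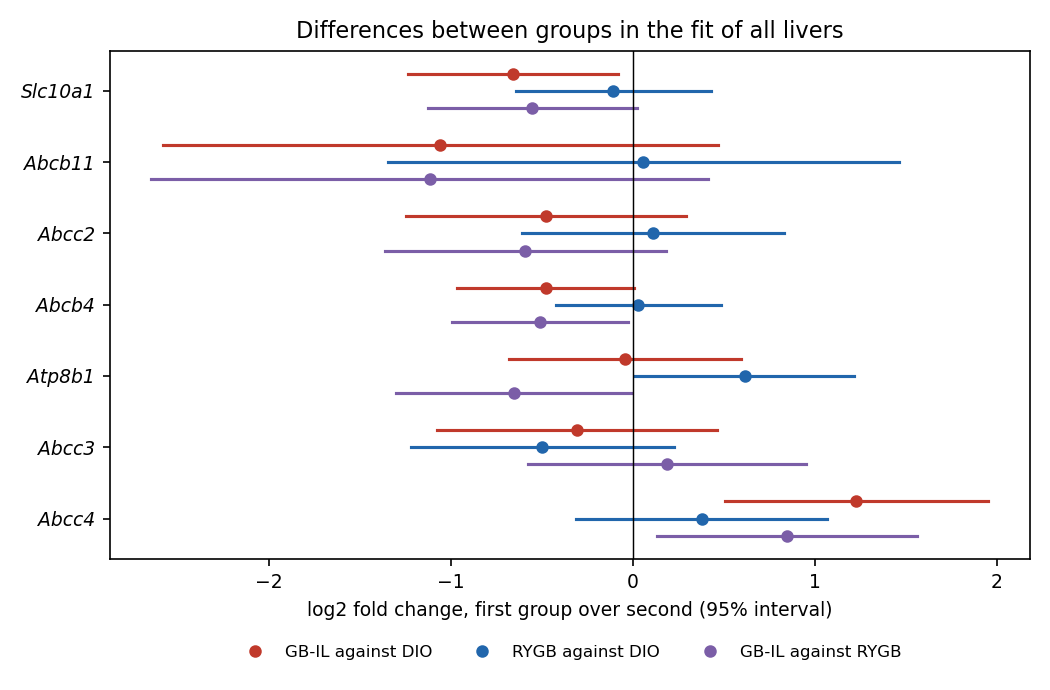
Log2 fold change of each of the 7 tested transporters in 3 comparisons (points) with 95% intervals (lines), from the edgeR model of the 14 livers; the horizontal axis gives the first-named group over the other. The interval of Abcc4 in GB-IL against DIO runs from 0.51 to 1.95, and the intervals of Abcb11 are the widest.

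The low Abcb11 of GB-IL livers 1 and 2 was also seen relative to other genes of the same library, where the scaling between libraries plays no part. The ratio of Slc10a1 to Abcb11 counts was 18.4 and 6.83 in GB-IL livers 1 and 2, 1.05 and 1.12 in livers 3 and 4, and 0.832 to 1.83 in DIO. The ratio of Abcb4 to Abcb11 was 8.87 and 4.52 in GB-IL livers 1 and 2, 0.418 and 0.653 in livers 3 and 4, and 0.398 to 0.719 in DIO. In these livers both ratios were above those of every DIO liver; they are ratios of reads, not corrected for gene length, so only their differences between livers can be read. Abcc4 counts relative to Abcb11 counts were 0.508 and 0.172 in GB-IL livers 1 and 2, 0.00792 and 0.00561 in livers 3 and 4, and 0.00304 to 0.00593 in DIO. The ratio of Abcc3 to Abcc2 showed no such split against DIO (0.935 to 1.99 in GB-IL, 0.688 to 2.43 in DIO).

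**Figure D3:**
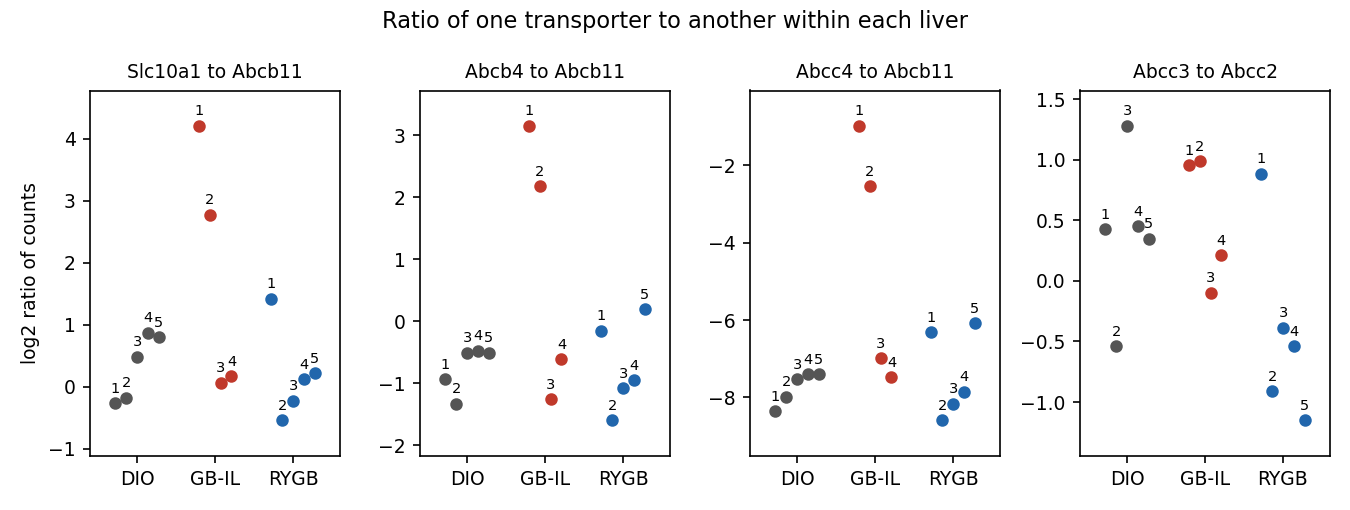
Log2 ratio of the counts of one transporter to those of another in each liver, with the liver's number above its point (linear axes of log2 values). GB-IL livers 1 and 2 lie above all others in the 3 panels that have Abcb11 as the denominator, and not in the panel of Abcc3 to Abcc2.

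The level of each member was also set against the geometric mean of the 11 hepatocyte markers of its liver. On this log2 scale the mean difference of GB-IL and DIO was -0.78 for Slc10a1, -2.24 for Abcb11, -0.62 for Abcb4, -0.58 for Abcc2, -0.46 for Abcc3 and -0.25 for Atp8b1. These are differences of means of per-liver log2 values. The edgeR fold changes above lie close to ratios of group mean CPM, which were 222 and 463 for Abcb11. The 2 measures therefore cannot be set side by side. For Slc10a1 and Abcc2, 3 of 4 GB-IL livers remained under all DIO livers, and for Abcb11 2 of 4 did. For Abcc4 the difference was 1.00, with 3 of 4 livers above all DIO livers. The geometric mean itself was close to 12 on the log2 CPM scale in every group, at 12.3 and 12.2 in GB-IL livers 1 and 2 and 11.7 to 12.2 in DIO. It averages markers that differed in direction, such as Tat (log2 fold change 1.76) and Serpina1c (-1.15). Without TMM scaling, the summed level of the same markers was at most 127659 CPM in GB-IL and at least 128085 CPM in DIO. TMM factors ran from 0.922 to 1.04 in GB-IL and from 0.959 to 1.06 in DIO. They differ by more than that gap, so no separation of the groups can be read from these sums.

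Transcripts of FXR were low in the GB-IL livers with low Abcb11. Nr1h4 had 26.2 and 50.4 CPM in GB-IL livers 1 and 2, 117 and 118 CPM in livers 3 and 4, and 93.8 to 161 CPM in DIO. Within DIO the 2 genes did not run in parallel, since livers 1 and 2 had the highest Abcb11 and the lowest Nr1h4 (93.8 and 124 CPM). RYGB liver 1 had the highest Nr1h4 of its group (119 CPM) with low Abcb11 (278 CPM). RYGB liver 5 was the lowest of its group in both (81.9 and 265 CPM). For Nr1h4 the difference between GB-IL and DIO was -0.75 on the log2 scale (SE 0.348, adjusted p = 0.210, edgeR). Nr0b2, which encodes the FXR target SHP, had 3.83 and 3.61 CPM in livers 1 and 2, 26.7 and 37.2 CPM in livers 3 and 4, and 7.13 to 48.9 CPM in DIO. Hnf4a, a hepatocyte factor that FXR targets also need, did not separate the livers in this way (585 to 764 CPM in GB-IL, 522 to 837 in DIO). Nr1h4, Nr0b2, Hnf4a and Tmem30a were singled out after their values had been seen. Whether the level of Nr1h4 plays a part in that of Abcb11 was not tested.

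**Figure D4:**
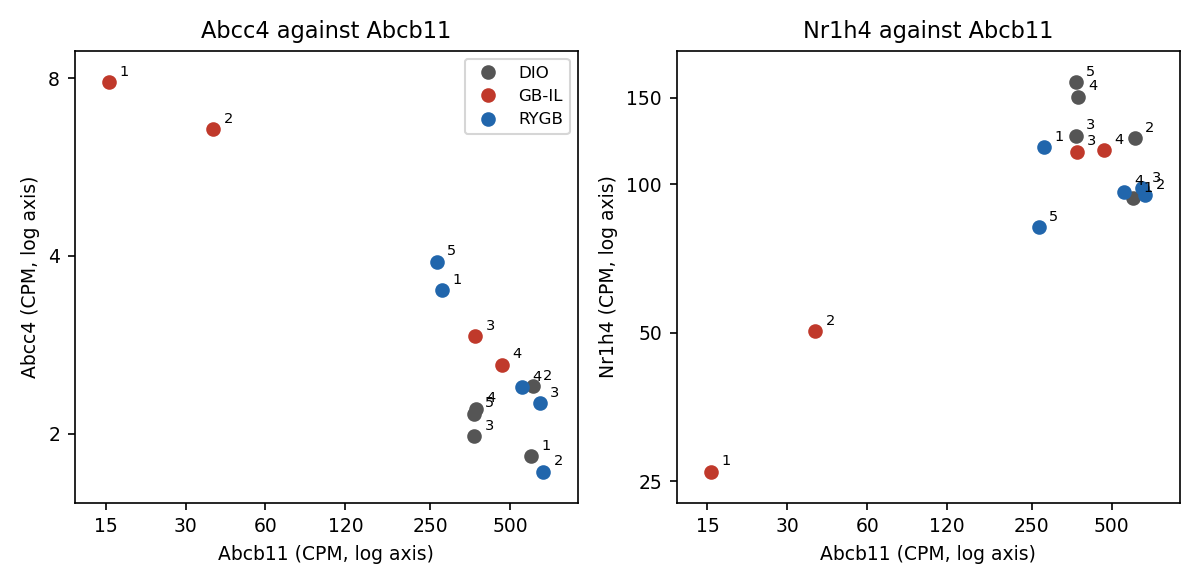
Abcc4 (left) and Nr1h4 (right) against Abcb11 in the 14 livers, in CPM on log axes, with the liver's number beside its point. GB-IL livers 1 and 2 combine the lowest Abcb11 with the highest Abcc4 (7.88 and 6.55 CPM) and the lowest Nr1h4 (26.2 and 50.4 CPM); RYGB livers 1 and 5 come next for Abcc4 (3.50 and 3.91 CPM).

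Markers of cholangiocytes and macrophages were mostly higher in GB-IL than in DIO. The summed level of the 10 cholangiocyte markers was 321, 262, 225 and 83.6 CPM in GB-IL livers 1 to 4 and 53.3 to 78.9 in DIO, and 4 of the 9 tested passed the FDR, all higher. Among them were Spp1 (log2 fold change 2.36), Krt19 (2.90) and Muc1 (1.83), with adjusted p-values of 0.0278, 0.0278 and 0.0343 (edgeR), and Krt19, a defining marker, had 11.1 and 13.7 CPM in livers 1 and 2. The summed level of 8 macrophage markers (of 9 listed) was 1057, 1125, 2160 and 840 CPM in GB-IL livers and 380 to 675 in DIO, and 4 passed, all higher, Cd14, Lyz2 and Cd68 with the smallest p-values (log2 fold changes 5.22, 2.18 and 1.33). Of 8 stellate cell markers Des passed (3.92, adjusted p = 0.0363), of the 11 hepatocyte markers Fgb (1.57, adjusted p = 0.0489), and of 8 endothelial markers none (0 of 8 at the FDR and 0 at an unadjusted p under 0.05 in edgeR). Of the stellate markers 7 had a higher mean in GB-IL and 1, Reln, a lower one (-0.54). Their sum was 375, 77.1, 153 and 195 CPM in GB-IL livers 1 to 4 and 90.8 to 136 in DIO, so liver 2 was under all DIO livers. Of the endothelial markers 4 had a higher and 4 a lower mean. Intestinal and gallbladder markers summed to 42.3, 45.3, 39.3 and 232 CPM in GB-IL and 88.1 to 222 in DIO, mostly from Fabp2, and Cdx2, Sis and Fabp6 were at or near 0 throughout. The cholangiocyte sum ordered the 4 GB-IL livers inversely to Abcb11, from liver 1 with the most marker and the least Abcb11 to liver 4, and Cd14 did so too (493, 145, 57.7 and 5.57 CPM), while the macrophage sum did not. The part of other cell types in the members' differences was not tested. All of these marker calls were lost when GB-IL liver 1, GB-IL liver 2 or any DIO liver was left out, since 0 of all genes then passed.

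To ask the same of gastric bypass, RYGB was compared with DIO in the same fit. None of the 7 members passed the FDR (0 of 7), and of all genes tested by edgeR 0% did. The unadjusted p was under 0.05 for 1 member, Atp8b1, and for 8.71% of all genes (1241), and DESeq2 called 0 members among 97 genes. Of the 7, 5 had a higher and 2 a lower mean in RYGB, with a median log2 fold change of 0.06 beside 0.01 for all genes. No member had groups without overlap (0 of 7), whereas 3.53% of all tested genes did.

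Atp8b1 had 29.4, 42.3, 38.2, 45.3 and 51.8 CPM in RYGB livers 1 to 5 (41.4 ± 8.34). Of these, livers 2 to 5 were above every DIO liver (20.9 to 35.6 CPM) and liver 1 was within their range. The log2 fold change was 0.61 (SE 0.282, 95% interval 0.01 to 1.22, adjusted p = 0.569, edgeR), and limma's voom, run with weights for sample quality, gave 0.72 with an adjusted p of 0.0181. Relative to the hepatocyte markers the difference of mean log2 values was 0.74, with 3 of 5 livers above all DIO livers. That measure is unlike the fitted fold change.

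Abcc3 spread widely after RYGB, at 348, 127, 216, 257 and 86.6 CPM in livers 1 to 5 (207 ± 104). Livers 2, 3 and 5 were under every DIO liver and livers 1 and 4 were not. The log2 fold change was -0.50 (SE 0.339, 95% interval -1.22 to 0.23, adjusted p = 0.708, edgeR). Its SD on the log2 scale was 0.806 in RYGB and 0.218 in DIO, and 83 of the 1296 genes at that level spread more in RYGB.

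Abcb11 had 278, 667, 648, 554 and 265 CPM in RYGB livers 1 to 5 (483 ± 197). Livers 1 and 5 were under all DIO livers and livers 2 and 3 above them, so the group spanned the DIO range on both sides without a shift of its mean. The log2 fold change was 0.06 (SE 0.659, 95% interval -1.35 to 1.46, adjusted p = 0.985, edgeR), an interval that leaves room for more than a doubling in either direction. Abcc4 had 3.50, 1.73, 2.25, 2.40 and 3.91 CPM in RYGB livers 1 to 5 (2.76 ± 0.912). Its highest RYGB values were in livers 1 and 5, the livers with the lowest Abcb11, as was the case within GB-IL. Within DIO it was not so throughout. Liver 2 was the highest of DIO in both Abcb11 and Abcc4 (609 and 2.41 CPM), while liver 1 had high Abcb11 and the lowest Abcc4 (602 and 1.83 CPM). The log2 fold change of Abcc4 was 0.38 (SE 0.323, 95% interval -0.31 to 1.07, adjusted p = 0.773, edgeR).

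For Slc10a1 the RYGB livers 1 to 5 had 746, 459, 555, 602 and 307 CPM (534 ± 164). Liver 1 lay above and livers 2 and 5 under all DIO livers, with a log2 fold change of -0.11 (SE 0.252, 95% interval -0.64 to 0.43, adjusted p = 0.931, edgeR). Abcc2 had 188, 238, 282, 373 and 192 CPM (255 ± 76.5), all within the DIO range, with a log2 fold change of 0.11 (SE 0.337, 95% interval -0.61 to 0.83, adjusted p = 0.943, edgeR). Abcb4 had 250, 221, 306, 288 and 304 CPM (274 ± 37.1) and the narrowest interval of the 7, a log2 fold change of 0.03 from -0.42 to 0.48 (adjusted p = 0.977, edgeR). For the uptake carrier and the canalicular exporters of conjugates and phospholipid no difference was thus detectable after RYGB at this number of livers, and differences within these intervals would not have been seen.

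GB-IL and RYGB were then compared directly, which is also the test of whether their differences from the shared DIO livers differ. None of the 7 members passed the FDR (0 of 7), and of all genes tested by edgeR 0% did, and no member had groups without overlap (0 of 7) beside 2.84% of all genes. Unadjusted p-values were under 0.05 for 3 members, Abcb4, Abcc4 and Atp8b1, and for 22.1% of all genes (3147), and DESeq2 called 0 members among 845 genes. The median log2 fold change of the 7 was -0.55, beside 0.03 for all genes, with 2 members higher and 5 lower in GB-IL.

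Abcb4 had a log2 fold change of -0.51 (SE 0.227, 95% interval -0.99 to -0.02, adjusted p = 0.210, edgeR), with GB-IL livers 1, 2 and 3 under all RYGB livers. For Abcc2 the same 3 livers were under all RYGB livers and the log2 fold change was -0.59 (SE 0.361, adjusted p = 0.333, edgeR). For Atp8b1 it was -0.66 (SE 0.302, 95% interval -1.30 to -0.01, adjusted p = 0.220, edgeR), and -0.17 without GB-IL livers 1 and 2. For Abcc4 it was 0.85 (SE 0.335, 95% interval 0.13 to 1.56, adjusted p = 0.172, edgeR), with GB-IL livers 1 and 2 above all RYGB livers, and -0.01 without them. The remaining values were -0.55 for Slc10a1 (SE 0.270, adjusted p = 0.241, edgeR), -1.12 for Abcb11 (SE 0.717, adjusted p = 0.351, edgeR) and 0.19 for Abcc3 (SE 0.358, adjusted p = 0.759, edgeR). GB-IL liver 4 decided several of these, since without it Slc10a1, Abcb4, Abcc2 and Abcc4 passed the FDR (adjusted p = 0.0498, 0.00974, 0.0418 and 0.0334, edgeR), but so did 3120 of all genes, up from 0.

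Slc51a and Slc51b encode the paired subunits of the organic solute transporter, a basolateral bile salt exporter that mouse liver normally expresses little of. Slc51a (chromosome 16, 32474504 to 32487879) had 1, 1, 1, 0 and 0 counts in DIO livers 1 to 5, 0 in each GB-IL liver, and 0, 1, 0, 0 and 2 in RYGB livers 1 to 5. The summed counts were thus 3, 0 and 3, too few for any statement on a difference. Slc51b (chromosome 9, 65412714 to 65422955) had 6, 1, 4, 4 and 0 counts in DIO livers 1 to 5, 7, 1, 24 and 6 in GB-IL livers 1 to 4, and 4, 27, 4, 4 and 49 in RYGB livers 1 to 5. A few livers held most of its counts, namely GB-IL liver 3 and RYGB livers 2 and 5. Of these, RYGB liver 5 also had the highest Abcc4 of its group (3.91 CPM), RYGB liver 2 had the lowest (1.73 CPM), and GB-IL liver 3 was not among the GB-IL livers with high Abcc4. Relative to DIO the rate of Slc51b was 2.83-fold in GB-IL (exact 95% interval 1.52 to 5.53) and 4.77-fold in RYGB (2.74 to 8.88), intervals that cover counting error only. Between livers, exact two-sided permutation tests gave p = 0.286 and p = 0.151, where the smallest p possible is 0.00794, and p = 0.619 for GB-IL against RYGB (0.593-fold, 0.394 to 0.877). Without GB-IL liver 3 the GB-IL ratio to DIO was 1.43, without RYGB liver 5 the RYGB ratio to DIO was 2.78, and the ratio of GB-IL to RYGB ranged from 0.299 without GB-IL liver 3 to 1.02 without RYGB liver 5. Slc51a overlaps Pcyt1a and Slc51b overlaps Rasl12, each on the opposite strand, so with the strand setting not given their counts and the neighbour's cannot be told apart.

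Other genes of bile formation were read from lists in the same fit. Of 23 tested genes of bile transport other than the members, none passed the FDR between GB-IL and DIO (0 of 23, with 6 at an unadjusted p under 0.05 in edgeR, a mark that 23.1% of all genes reached), 6 had a higher and 17 a lower mean, and the median log2 fold change was -0.49. The smallest p-value was that of Slco1a4, a sinusoidal uptake carrier of organic anions, with 318, 183, 28.0 and 98.8 CPM in GB-IL livers 1 to 4 and 22.5 to 54.8 in DIO (log2 fold change 2.01, SE 0.550, adjusted p = 0.0586, edgeR). Of 13 regulators, 2 had a higher and 11 a lower mean (median -0.52, 0 past the FDR and 5 at an unadjusted p under 0.05 in edgeR). Of 9 genes of bile acid synthesis and conjugation, 8 had a lower mean (median -0.65, 0 past the FDR and 1 at an unadjusted p under 0.05 in edgeR). Cyp7b1, the oxysterol hydroxylase of the alternative synthesis route, had 17.7, 40.7, 82.1 and 65.3 CPM in GB-IL and 75.5 to 247 in DIO (log2 fold change -1.33, SE 0.581, adjusted p = 0.191, edgeR).

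The 17 tested genes of the canalicular scaffold, of vesicle traffic and of the tight junction had a median of -0.06 (log2, GB-IL over DIO), with 6 higher, 11 lower and 0 past the FDR (3 at an unadjusted p under 0.05, edgeR). Ezr, which encodes the membrane-to-actin linker ezrin, had the smallest p, with 18.8, 10.3, 15.1 and 5.05 CPM in GB-IL livers 1 to 4 and 3.97 to 9.05 in DIO (log2 fold change 1.04, SE 0.322, adjusted p = 0.0867, edgeR). Ezrin is typical of bile duct cells. GB-IL livers 1, 2 and 3 were above all DIO livers in Ezr and in the cholangiocyte sum, but their order differed. Liver 4 was within the DIO range in Ezr and only narrowly above it in the sum (83.6 CPM, beside at most 78.9 in DIO, without TMM scaling). Liver 2 had a higher sum than liver 3 (262 and 225 CPM) and a lower Ezr, only just above DIO. A part of that cell type in this value was not tested. Against RYGB livers the median of the list was -0.31, with 0 past the FDR and 7 at an unadjusted p under 0.05 (edgeR), and Ezr again had the smallest p (1.08, SE 0.321, adjusted p = 0.111).

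After RYGB, the lists of other transport genes, scaffold and traffic, regulators and synthesis had 0 genes past the FDR against DIO, with 1, 1, 1 and 0 at an unadjusted p under 0.05 (edgeR) and medians of -0.11, 0.03, -0.29 and 0.20. The genes with the smallest p among the transport and the synthesis genes were Abcc1 (0.54, SE 0.233) and Slc27a5, the bile acid ligase (-0.47, SE 0.227), with adjusted p-values of 0.547 and 0.582 (edgeR). In GB-IL against RYGB the genes with the smallest p among transport, regulator and synthesis genes were Abcc6 (-0.93, SE 0.353), Cebpb (1.34, SE 0.366) and Cyp7b1 (-2.12, SE 0.599), with adjusted p-values of 0.163, 0.0948 and 0.101 (edgeR), and again 0 genes of these lists passed the FDR, with 5, 2 and 2 at an unadjusted p under 0.05.

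The genes most like each member were taken as the 2 with the highest Pearson r of log2 CPM over the 14 livers, out of 12689 candidates, so a high r is built into the choice, and the 14 livers share groups. For Abcb11 they were AI182371 (r = 0.988) and Nxpe2 (r = 0.986), and without GB-IL livers 1 and 2, the farthest from the median, r was 0.892 and 0.831. Nxpe2 had 0.368 and 1.58 CPM in GB-IL livers 1 and 2, 21.0 and 21.9 in livers 3 and 4, and 15.8 to 28.8 in DIO, the same split as Abcb11. For Abcc4 they were Gpr137b and Ier3 (r = 0.948 and 0.941, and 0.777 and 0.778 without the same livers). Gpr137b had 17.1, 12.7, 5.60 and 3.54 CPM in GB-IL livers 1 to 4 and 1.78 to 2.61 in DIO. For Atp8b1 they were Mgat5 and Adam17 (0.952 and 0.942, and 0.912 and 0.868 without those livers). For Slc10a1 they were Pccb and Slc27a2 (both 0.927), for Abcb4 Cadm3 and Hadhb (0.923 and 0.921), for Abcc2 Zfp871 and Hipk2 (0.956 and 0.955) and for Abcc3 Kdsr and Echs1 (0.901 and 0.878). Without the 2 livers farthest from the member's median these r values were 0.854 and 0.851, 0.848 and 0.856, 0.922 and 0.916, and 0.830 and 0.718.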

How the data were processed

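Liver RNA of 14 mice was sequenced with 1 library per liver. By the study's methods the RNA was amplified, and the reads were aligned with TopHat2 to mm10 and assigned to genes with HTSeq (versions: not given in the sources used here; likewise annotation and strand setting). As deposited by the authors, the values are raw counts per gene, without normalization. Of the 2 stranded kits in the labels (mRNA, total RNA), neither is tied to particular livers, so no kit term could be used. The labels number the livers, and p-values measure the spread between them.

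Software was edgeR 4.0.16, DESeq2 1.42.0 and limma 3.58.1 under R 4.3.3, with Python 3.11.15 for sequences and figures. Genes were kept by filterByExpr by group, scaled by TMM and fitted with glmQLFit (robust off), each of the 3 groups having its own mean. The SE was taken from the fold change and its F value. Exon lengths and gene positions came from the GENCODE M21 annotation of GRCm38 (24701 of 25212 identifiers matched). Slc51a and Slc51b are given as summed counts with exact Clopper-Pearson 95% intervals of the ratio of rates and exact permutation tests. The depth of 18223135 to 28656631 counts per liver gives each tested member at least 35 counts in a liver, and intervals of counts cover counting error only.

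The members and all gene lists were chosen with earlier results of these data known, although the rule for the members itself uses gene symbols alone. Of each list, in each comparison, up to 3 genes past the FDR with the smallest p-values are named, or, where none passed, the 1 with the smallest p; the 2 genes most like each member were taken among tested genes averaging at least 1 CPM. A few genes named by these rules are not reported here. Alternative settings were scaling by RLE or upper quartile, tests by DESeq2 or by limma's voom (weighted by sample quality), filters of none or of a mean count of 50, models of just the pair of groups compared, a block for the replicate number, and omission of each liver in turn; leaving out GB-IL livers 1 and 2 was added after seeing the data.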

Additional observations from a re-analysis of the deposited data

How the results depend on the processing

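The number of members past the FDR was 0 in each comparison. In GB-IL against DIO it was 1 with DESeq2 (Abcc4) and 0 to 3 when each liver was left out in turn, 1 without GB-IL liver 3 (Abcc4) and 3 without GB-IL liver 4 (Slc10a1, Abcb4 and Abcc4), where 576 and 3572 of all genes passed. In RYGB against DIO it was 1 with voom (Atp8b1) and in GB-IL against RYGB it was 0 to 4 over the livers left out, 4 without GB-IL liver 4, where 3120 of all genes passed. Log2 fold changes turned in sign as follows. Atp8b1 in GB-IL against DIO was 0.38 with voom, 0.45 without GB-IL livers 1 and 2, and -0.41 to 0.16 over the livers left out. In RYGB against DIO, Abcb11 was -0.20 with the replicate block and -0.078 to 0.22 over the livers left out, Abcb4 -0.013 to 0.10, Abcc2 -0.066 to 0.45 and Slc10a1 -0.26 to 0.048. In GB-IL against RYGB, Abcc3 was -0.16 with voom and -0.074 to 0.46 over the livers left out, Abcc4 was -0.015 without GB-IL livers 1 and 2, and the Slc51b ratio was 0.299 to 1.02, the last without RYGB liver 5. The causes were not tested. The other fold changes of the 7 tested members and ratios of Slc51b kept their direction under the alternatives run. Deviations of same-numbered livers from their group means had correlations from -0.358 to 0.370. Since these are deviations from means of only 4 to 5 livers, they cannot decide whether the replicate numbers pair the livers. With the number as a block 0 members passed in each comparison, and 1, 0 and 0 genes of all did (465, 0 and 0 without the block). The fit of the compared groups only called 0, 33 and 0 genes, DESeq2 1292, 97 and 845, and voom 589, 1690 and 115. The limits are the 4 to 5 livers per group, the wide spread within GB-IL, the few counts of Abcc4, Slc51a and Slc51b, and the unstated kit of each library.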

Other observations

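Further genes of bile acid handling were picked here after their values had been seen, and of these Abcc6 and Cyp7a1 were low in the GB-IL livers with low Abcb11. Abcc6, an ABC transporter of the basolateral hepatocyte membrane, had 41.9 and 46.1 CPM in GB-IL livers 1 and 2, 152 and 149 CPM in livers 3 and 4, and 145 to 231 CPM in DIO. Cyp7a1, the rate-limiting enzyme of bile acid synthesis, had 2.84 and 15.6 CPM in GB-IL livers 1 and 2, 221 and 123 CPM in livers 3 and 4, 56.9 to 231 CPM in DIO, and 39.5 to 432 CPM in RYGB. Slc10a2, the apical sodium-dependent bile acid transporter known from ileum and bile ducts, had 3.41 and 7.29 CPM in GB-IL livers 1 and 2 and 12.8 and 22.6 CPM in livers 3 and 4, within or under the DIO range of 7.36 to 27.5 CPM. Nfe2l2, which encodes the stress factor that binds the antioxidant element, had 96.7, 63.1, 55.5 and 86.4 CPM in GB-IL livers 1 to 4 and 59.5 to 83.2 CPM in DIO.

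The cell type marker lists had 0 genes past the FDR in RYGB against DIO. The genes with the smallest p in the lists for hepatocytes, cholangiocytes, macrophages, stellate cells, endothelium and intestine were Serpina1c (log2 fold change -0.85), Krt23 (-2.84), Marco (1.69), Col1a2 (0.85), Stab2 (0.68) and Lgals4 (-0.44), with adjusted p-values of 0.515, 0.331, 0.547, 0.551, 0.564 and 0.723 (edgeR). In GB-IL against RYGB, where 0 markers passed as well, they were Tat (1.66), Spp1 (1.91), Cd14 (5.37), Des (3.67), Stab2 (-0.77) and Lgals4 (0.42), with adjusted p-values of 0.123, 0.0552, 0.0552, 0.0839, 0.197 and 0.449 (edgeR). Against DIO, the endothelial and intestinal genes with the smallest p in GB-IL were Oit3 (-0.61, adjusted p = 0.277) and Fabp2 (-1.06, adjusted p = 0.394). The hepatocyte, cholangiocyte, macrophage, stellate, endothelial and intestinal lists had 11, 9, 8, 8, 8 and 2 markers tested. Of these, 1, 2, 1, 1, 1 and 0 had an unadjusted p under 0.05 in RYGB against DIO (edgeR), beside 8.71% of all genes. In GB-IL against RYGB 4, 7, 3, 3, 2 and 0 did, beside 22.1% of all genes.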
